A study of Homo sapiens with 6 samples.

Results

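The 60 genes described here encode factors that process ribosomal RNA and assemble ribosomes, grouped around RRP9. RRP9 was chosen by its low values after RBM47 overexpression in these libraries, and the other 59 were chosen by function with earlier results of the same libraries known. All 60 were found by symbol among the 28491 genes of the count table, and all 60 were among the 16260 genes that passed the filter on low counts. HCT116, a human colorectal carcinoma cell line, was transfected with a control plasmid (NC, 3 libraries) or with a plasmid that expresses RBM47 (RBM47-OE, 3 libraries), and poly(A) RNA was sequenced 48 h later. RBM47 is an RNA-binding protein, and here it was driven from a plasmid in a single cell line, so both groups share the transfection and the host cell. The labels do not state that the 3 libraries of a group came from separate cultures, so the p-values below measure only the spread between these libraries.

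Ribosomes are made in the nucleolus, where RNA polymerase I transcribes a long precursor of the rRNAs. Box C/D and box H/ACA small nucleolar ribonucleoproteins (snoRNPs) modify the precursor, and the U3 snoRNP together with the SSU processome folds and cleaves it to release the small (40S) subunit RNA. Other factors build the large (60S) subunit and carry both subunits to the cytoplasm. Growing cells, and colorectal carcinoma cells among them, express these factors strongly.

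The libraries held between 26792409 and 35477983 counts on genes, and the members took 0.677% to 0.811% of them, with 370 to 44940 counts per member and library. RBM47 stood at 2.06 ± 0.234 FPKM in NC and 129.6 ± 2.25 FPKM in RBM47-OE (SD, n = 3). Of 10 colorectal epithelial markers, 8 were above 1 FPKM in every library and KRT20 and VIL1 were below 1, and the leukocyte and endothelial markers with a row were all below 1 FPKM. Of the 3 fibroblast markers with a row, COL1A1 stood at 1.31 to 1.72 FPKM across the libraries and the other 2 were below 1, and the summed level was 1.51 to 1.77 FPKM in NC and 1.34 to 1.78 FPKM in RBM47-OE. In such bulk RNA, fewer cells that express a gene and less of its RNA per cell cannot be told apart. Values within a gene are given in CPM, counts scaled to a common library size with TMM factors, in the order of replicates 1, 2 and 3, and fold changes are RBM47-OE over NC on the log2 scale with their standard error (SE).

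RRP9 is a WD-repeat protein of the U3 snoRNP, which guides the first cleavages of the rRNA precursor. RRP9 (ENSG00000114767, chromosome 3:51933429-51941904, minus strand) in GRCh38 was measured at 84.9, 89.1 and 86.3 CPM in NC and 52.9, 48.1 and 53.3 CPM in RBM47-OE. All 3 RBM47-OE libraries lay below all 3 NC libraries, and the means were 86.8 ± 2.15 and 51.4 ± 2.93 CPM (SD, n = 3). The log2 fold change was -0.75 ± 0.073, or 0.593 of the NC level. This was the lowest value of the 60 members and the 222nd lowest of the 16260 genes tested, so 1.36% of genes had a lower one. Since RRP9 was picked for this value, no test is given for it. Over all processing alternatives the log2 fold change of RRP9 ranged from -0.78 to -0.54, and the value nearest to 0 came from a fit that takes out each library's trend with the GC content of exons (called the GC offset below). The exons of RRP9 had a GC content of 60.7%.

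The promoter of RRP9 holds an E-box, the motif CACGTG that MYC and other basic helix-loop-helix factors can bind and that is known from many ribosome biogenesis genes. The motif reads the same on both strands. It was searched in a window from 250 bases before to 50 bases after the RefSeq start of each gene (GRCh38.p14), and 50 of the 60 members had such a window. An E-box was present in 22 of these 50 (44%), in 12.5% of the 11105 tested genes with a window and in 8.77% of all 27305 genes with one. Of 67 other ribosome biogenesis factors outside the 60 with a window, 18 (26.9%) held an E-box. The 22 members held 26 E-boxes, and in 21 of the 22 the first base of one lay within 50 bases of the start. The sites below belong to RRP9 and to some of the other members that passed the test below in each direction. NOP2, which was lower, and GNL2 and UTP18, which were higher, also held an E-box and are not shown. Each is written 5′ to 3′ on the strand of its gene with the E-box in capitals and up to 12 bases on either side, and the RRP9 site lies at chr3:51941892-51941921, minus strand, with its first E-box base 5 bases before the start.
RRP9: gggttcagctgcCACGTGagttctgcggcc
NOL6: ggcatttccgccCACGTGggaagctatgag
IMP4: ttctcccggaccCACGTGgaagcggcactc
BYSL: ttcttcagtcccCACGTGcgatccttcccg
PWP2: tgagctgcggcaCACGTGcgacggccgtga
FBL: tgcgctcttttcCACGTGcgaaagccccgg
PES1: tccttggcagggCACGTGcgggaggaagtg
GNL3: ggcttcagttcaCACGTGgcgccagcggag
DDX21: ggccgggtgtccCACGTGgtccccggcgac
The NOL6 site lies at chr9:33473894-33473923 (minus strand), the IMP4 site at chr2:130342900-130342929 (plus strand) and the BYSL site at chr6:41921515-41921544 (plus strand). The PWP2 site lies at chr21:44107388-44107417 (plus strand), the FBL site at chr19:39846356-39846385 (minus strand) and the PES1 site at chr22:30591880-30591909 (minus strand). The GNL3 site lies at chr3:52686026-52686055 and the DDX21 site at chr10:68956604-68956633, both on the plus strand. RRP9, NOL6, IMP4, BYSL, PWP2, FBL and PES1 were lower in RBM47-OE, while GNL3 and DDX21 rose, so the E-box was found on members of both directions. By call, 8 of 16 lower members with a window held one, as did 4 of 14 higher members and 10 of 20 members that did not pass the test. The GC box GGGCGG (with CCGCCC for the other strand), a motif of Sp1 family factors that does not overlap the E-box in sequence, was in 40 of the 50 windows (80.0%) and in 77.0% of those of the tested genes. Among the 67 other biogenesis factors the GC box was in 41 (61.2%). All of these are matches of letters in a window, with no measurement of binding.

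To ask how the whole set stood in RBM47-OE cells, each gene was tested across all 16260 genes with edgeR's quasi-likelihood test and a Benjamini-Hochberg adjusted p under 0.05. Of the 60 members 19 were lower, or 18 without RRP9, where 16.9% of all genes tested were lower. A further 19 members were higher, against 19.1% of all genes tested, and 22 did not pass. The same 6 libraries and contrast gave RRP9 its place at the head of the list, so nothing is read from these counts, and the counts by role below stand beside the same shares of 16.9% and 19.1%. The median log2 fold change of the members was 0.05, where that of all genes tested was 0.00. Among the members that passed, the smallest change was 0.20 (UTP18), and the members that did not pass ran from -0.22 (RRP8) to 0.21 (DDX10). All 3 RBM47-OE libraries lay below all 3 NC libraries for 24 members (23.4% of all genes tested) and above them for 13 (23.2% of all genes tested), and the groups overlapped for 23. At the study's own thresholds, an unadjusted p under 0.01 and a fold change over 1.5, NOL6 was the 1 member beside RRP9 that was lower (0.873% of all genes tested), and the largest rise among the members, 0.49 for RIOK2, stayed under that fold (1.51% of all genes tested were higher). With the GC offset 18 members were lower, or 17 without RRP9 (8.46% of all genes tested), and DDX18 was the 1 member that was higher (6.0% of all genes tested).

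**Figure D1:**
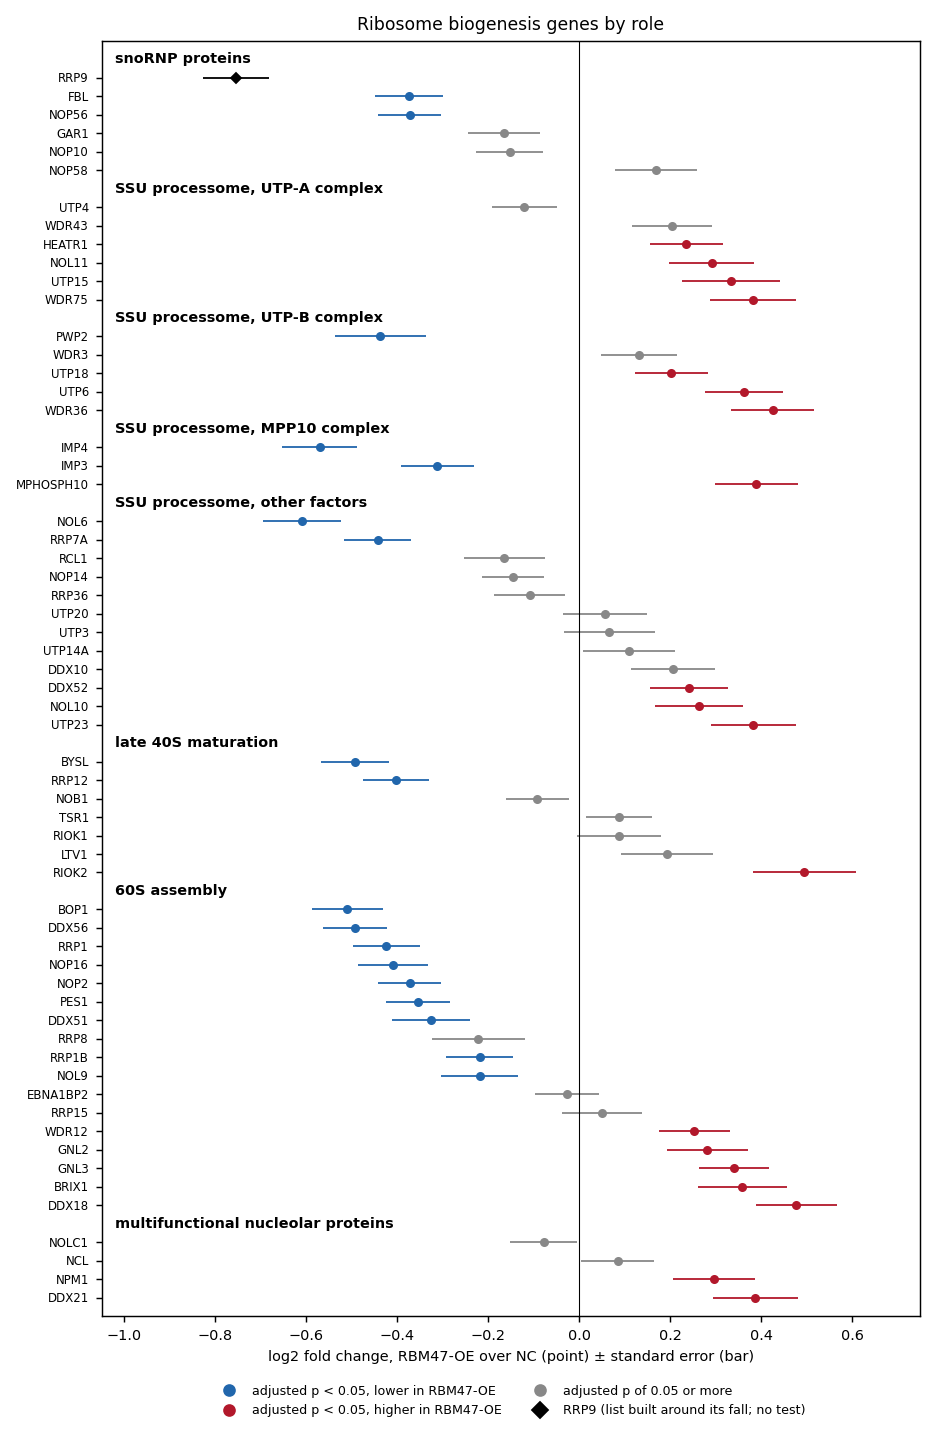
Log2 fold change of the 60 members, RBM47-OE over NC, as points with the standard error as bars, grouped by role and coloured by the call. RRP9 lies farthest to the left at -0.75, and lower and higher members stand side by side in the UTP-B, MPP10, late 40S and 60S groups.

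Of the 5 snoRNP proteins beside RRP9, FBL and NOP56 were lower and NOP58, NOP10 and GAR1 did not pass. FBL, the rRNA 2′-O-methyltransferase of box C/D snoRNPs, was measured at 436, 440.1 and 432 CPM in NC and 373, 314 and 322 CPM in RBM47-OE, with no overlap between the groups (log2 fold change -0.37 ± 0.075 (SE), adjusted p = 0.00051). NOP56, a scaffold protein of the same particle, was measured at 239, 237 and 222 CPM in NC and 177, 173 and 189 CPM in RBM47-OE (log2 fold change -0.37 ± 0.070 (SE), adjusted p = 0.0003). Both fell, and both stayed lower with the GC offset (-0.24 with adjusted p = 0.0087 for FBL and -0.24 with adjusted p = 0.0078 for NOP56). NOP58, which pairs with NOP56 in the particle, had 71.6, 68.8 and 66.6 CPM in NC and 64.0, 79.3 and 89.7 CPM in RBM47-OE. Its RBM47-OE libraries lay on either side of the NC libraries (log2 fold change 0.17 ± 0.090 (SE), adjusted p = 0.15), and its value turned to -0.15 with the GC offset. NOP10 and GAR1, core proteins of the box H/ACA snoRNPs that make pseudouridine, had log2 fold changes of -0.15 and -0.17 and did not pass, though all 3 RBM47-OE libraries lay below NC in both. Both passed with the GC offset, at -0.34 (adjusted p = 0.0029) and -0.30 (adjusted p = 0.0035).

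The UTP-A complex, which binds the start of the rRNA precursor first, had 6 members here, all with GC-poor exons, of which 4 were higher and UTP4 and WDR43 did not pass. Of all genes tested 19.1% were higher, and of those at or below the median exonic GC content 37.0% were. WDR75 was measured at 47.1, 46.3 and 44.1 CPM in NC and 48.8, 60.1 and 70.4 CPM in RBM47-OE, and all 3 RBM47-OE libraries lay above NC (log2 fold change 0.38 ± 0.095 (SE), adjusted p = 0.0029). UTP15 had 17.3, 16.9 and 18.4 CPM in NC and 18.2, 23.1 and 24.9 CPM in RBM47-OE, with RBM47-OE replicate 1 inside the NC range (log2 fold change 0.33 ± 0.11 (SE), adjusted p = 0.017). NOL11 and HEATR1 rose with log2 fold changes of 0.29 and 0.24, again with replicate 1 of RBM47-OE inside the NC range. Under the GC offset the 6 members ran from -0.16 to 0.03, and none passed (edgeR, 1 lower and 0 higher at an unadjusted p under 0.05).

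The UTP-B complex joins the processome next, and of its 5 members here 3 rose, 1 fell and WDR3 did not pass. PWP2, a WD-repeat scaffold of the complex, had 24.4, 23.2 and 22.8 CPM in NC and 19.2, 15 and 17.7 CPM in RBM47-OE, with no overlap between the groups (log2 fold change -0.44 ± 0.1 (SE), adjusted p = 0.0016). WDR36, another WD-repeat subunit, had 49.6, 43.9 and 50.1 CPM in NC and 53.2, 68.8 and 70.8 CPM in RBM47-OE, and every RBM47-OE library lay above NC (log2 fold change 0.42 ± 0.091 (SE), adjusted p = 0.00093). UTP6 was measured at 42.2, 46.5 and 44.8 CPM in NC and 49.8, 57.4 and 64.6 CPM in RBM47-OE and also rose without overlap (log2 fold change 0.36 ± 0.086 (SE), adjusted p = 0.0021). PWP2 and WDR36 of the same complex thus lay on opposite sides of 0. Fitted with the GC offset, PWP2 stood at -0.25 (adjusted p = 0.053), WDR36 at 0.06 and UTP6 at 0.19 (adjusted p = 0.07), and the 5 members did not pass (2 lower and 1 higher at an unadjusted p under 0.05).

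The MPP10 complex of MPHOSPH10, IMP3 and IMP4 binds the U3 RNA and the precursor in the processome. IMP4 (ENSG00000136718, chromosome 2:130342877-130347967, plus strand) had 109.6, 112 and 103 CPM in NC and 79.5, 61.6 and 77.5 CPM in RBM47-OE, and all RBM47-OE libraries lay below NC (log2 fold change -0.57 ± 0.083 (SE), adjusted p = 3.9e-05). IMP3 had 104, 103 and 98.4 CPM in NC and 89.2, 70.5 and 86.5 CPM in RBM47-OE and fell less (log2 fold change -0.31 ± 0.080 (SE), adjusted p = 0.0038). MPHOSPH10 (ENSG00000124383, chromosome 2:71130310-71150101, plus strand), the largest protein of the complex, had 27.6, 25.4 and 26.1 CPM in NC and 30.5, 35.1 and 38.0 CPM in RBM47-OE and rose, with every RBM47-OE library above NC (log2 fold change 0.39 ± 0.091 (SE), adjusted p = 0.0018). All 3 proteins are found together in one complex, and their transcripts moved to either side of 0. The exonic GC content was 54.4% for IMP4, 58.5% for IMP3 and 41.8% for MPHOSPH10. Under the GC offset IMP4 kept a value of -0.42 (adjusted p = 0.00052), whereas IMP3 at -0.12 and MPHOSPH10 at 0.15 did not pass. Of the exons of IMP3, 58.1% overlap exons on the opposite strand, so its reads may include those of its neighbours if strand was not used in counting.

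Among the 12 other processome factors 2 fell, 3 rose and 7 did not pass. NOL6 (ENSG00000165271, chromosome 9:33461353-33473930, minus strand), which forms a unit with RRP7A that contacts the early 40S precursor, had 44.3, 46.2 and 41.7 CPM in NC and 27.2, 27.4 and 32.1 CPM in RBM47-OE. Its groups did not overlap, and after RRP9 it had the lowest value of the members (log2 fold change -0.61 ± 0.086 (SE), adjusted p = 3.2e-05). RRP7A had 102, 93.9 and 93.9 CPM in NC and 71.2, 67.3 and 74.9 CPM in RBM47-OE and fell as well (log2 fold change -0.44 ± 0.073 (SE), adjusted p = 0.0001). Both partners were lower, and both passed with the GC offset, at -0.43 and -0.26. A share of 33.9% of the exons of RRP7A lies across from exons of SERHL. UTP23, a small PIN-domain protein, had 22.4, 22.1 and 22.0 CPM in NC and 25.5, 29.1 and 32.1 CPM in RBM47-OE and rose (log2 fold change 0.38 ± 0.094 (SE), adjusted p = 0.0026). NOL10 had 29.9, 29.1 and 29.5 CPM in NC and 31.2, 32.8 and 42.3 CPM in RBM47-OE and rose (log2 fold change 0.26 ± 0.098 (SE), adjusted p = 0.037), and the helicase DDX52 rose by 0.24 on the log2 scale. UTP23 and NOL10 both stood at 0.03 with the GC offset. RCL1, NOP14, RRP36, UTP20, UTP3, UTP14A and DDX10 did not pass and ran from -0.16 (RCL1) to 0.21 (DDX10).

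Late maturation of the 40S subunit showed 2 lower members of 7, 1 higher member and 4 that did not pass. BYSL, which binds the 40S precursor as it leaves the nucleolus, had 61.3, 60.1 and 58.1 CPM in NC and 44, 40.9 and 42.5 CPM in RBM47-OE, with the groups far apart compared with the spread within them (log2 fold change -0.49 ± 0.075 (SE), adjusted p = 4.9e-05). RRP12, an export factor of the subunits, had 90.3, 85.7 and 87.8 CPM in NC and 70.3, 65.8 and 63.3 CPM in RBM47-OE (log2 fold change -0.40 ± 0.072 (SE), adjusted p = 0.00019). BYSL and RRP12 both fell, and both passed with the GC offset (-0.32 and -0.23). RIOK2 (ENSG00000058729, chromosome 5:97160867-97183247, minus strand), a kinase that acts on the late 40S precursor, had 14.1, 15.9 and 15.5 CPM in NC and 17.5, 24.8 and 21.9 CPM in RBM47-OE. Every RBM47-OE library of RIOK2 lay above NC, and it had the highest value of the members (log2 fold change 0.49 ± 0.11 (SE), adjusted p = 0.0015). Its exons had a GC content of 37.4%, and with the GC offset its value was 0.14 (adjusted p = 0.34). NOB1, the nuclease that makes the final end of the 18S rRNA, stood at -0.09, and TSR1, RIOK1 and LTV1 stood between 0.09 and 0.19, all without passing.

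The largest group, 17 factors of 60S assembly, had 9 lower and 5 higher members, and RRP8, EBNA1BP2 and RRP15 did not pass. PES1, BOP1 and WDR12 form the PeBoW complex, which is needed to process the precursor of the large subunit rRNAs. BOP1 had 296, 285 and 284 CPM in NC and 229.9, 188 and 189.8 CPM in RBM47-OE and fell without overlap (log2 fold change -0.51 ± 0.077 (SE), adjusted p = 4.9e-05). PES1 had 319.8, 321 and 319 CPM in NC and 263, 231 and 256 CPM in RBM47-OE and fell, with NC libraries that nearly coincided (log2 fold change -0.35 ± 0.071 (SE), adjusted p = 0.00053). WDR12 had 60.5, 59.4 and 54.7 CPM in NC and 63.1, 70.8 and 74.3 CPM in RBM47-OE and rose, also without overlap (log2 fold change 0.25 ± 0.078 (SE), adjusted p = 0.013). As in the MPP10 complex, 1 subunit rose and 2 fell. The exonic GC content was 65.2% for BOP1, the highest of all members, 56.7% for PES1 and 40.3% for WDR12. Under the GC offset BOP1 (-0.29, adjusted p = 0.0018) and PES1 (-0.18, adjusted p = 0.043) stayed lower and WDR12 turned to -0.03.

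Of the nucleolar RNA helicases in the 60S group, DDX56 had 114, 118 and 116 CPM in NC and 87.2, 78.5 and 81.5 CPM in RBM47-OE and fell (log2 fold change -0.49 ± 0.070 (SE), adjusted p = 3.5e-05). DDX18 (ENSG00000088205, chromosome 2:117814691-117832377, plus strand) had 101, 92.3 and 102 CPM in NC and 113, 139.8 and 158 CPM in RBM47-OE and rose, with every RBM47-OE library above NC (log2 fold change 0.48 ± 0.089 (SE), adjusted p = 0.00029). DDX51 fell with a log2 fold change of -0.33, so helicases of one assembly pathway changed in both directions. DDX18 was the 1 higher member that also passed with the GC offset, at 0.20 (adjusted p = 0.046), and DDX56 stayed lower at -0.32 (adjusted p = 0.00057). BRIX1, a 60S precursor factor with the GC-poorest exons of the called members (35.8%), had 42.2, 43.9 and 43.3 CPM in NC and 44, 57.8 and 64.3 CPM in RBM47-OE. It rose without overlap (log2 fold change 0.36 ± 0.098 (SE), adjusted p = 0.0056) and stood at -0.02 with the GC offset. The GTPases GNL3 and GNL2 rose with log2 fold changes of 0.34 and 0.28. RRP1, NOP16, the rRNA methyltransferase NOP2, RRP1B and the RNA kinase NOL9 fell, with log2 fold changes from -0.42 to -0.22. RRP15, the member with the lowest GC content (35.2%), stood at 0.05 without the GC offset and at -0.31 with it (adjusted p = 0.008).

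The multifunctional nucleolar proteins were among the most abundant members. NPM1 (nucleophosmin), a chaperone of the nucleolus and of ribosome export, had 1117, 1052 and 1048 CPM in NC and 1111, 1289.6 and 1549.8 CPM in RBM47-OE and rose (log2 fold change 0.30 ± 0.090 (SE), adjusted p = 0.012). NCL (nucleolin), which binds nascent rRNA, had 979, 965 and 976 CPM in NC and 918, 1012 and 1167 CPM in RBM47-OE and did not pass (log2 fold change 0.08 ± 0.081 (SE), adjusted p = 0.44). In both genes RBM47-OE replicate 3 was the highest library and replicate 1 lay inside the NC range or below it. DDX21, a helicase that links RNA polymerase I transcription and rRNA processing, had 193, 171 and 183 CPM in NC and 191, 249 and 276 CPM in RBM47-OE and rose, again with replicate 1 inside the NC range (log2 fold change 0.39 ± 0.093 (SE), adjusted p = 0.0022). NOLC1, a chaperone of snoRNPs, stood at -0.08 and did not pass. With the GC offset NPM1 stood at 0.01 and DDX21 at 0.14, and neither passed. The pseudogene copy NPM1P27 had 92 to 141 counts in the libraries, against at least 29344 for NPM1.

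The 3 RBM47-OE libraries did not carry the differences equally. For the 19 lower members the median log2 difference from the NC mean was -0.40, -0.52 and -0.41 in RBM47-OE replicates 1, 2 and 3. For the 19 higher members it was 0.09, 0.37 and 0.53. All genes at or below the median exonic GC content also stood nearest to NC in replicate 1, with medians of 0.12, 0.25 and 0.28. Replicate 1 was the RBM47-OE library nearest to NC in all 19 higher members and in 11 of the 19 lower members. The spread between libraries was also unequal, since the median SD of the members' log2 CPM was 0.049 in NC and 0.163 in RBM47-OE, where over all genes tested it was 0.088 and 0.145. The number of higher members went from 19 to 9 without RBM47-OE replicate 3, to 11 without NC replicate 2 and to 27 without RBM47-OE replicate 1. No share of all genes is given for fits without 1 library, so nothing particular to the members is read from these counts. The number of lower members stayed between 17 and 19 when any 1 library was left out.

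**Figure D2:**
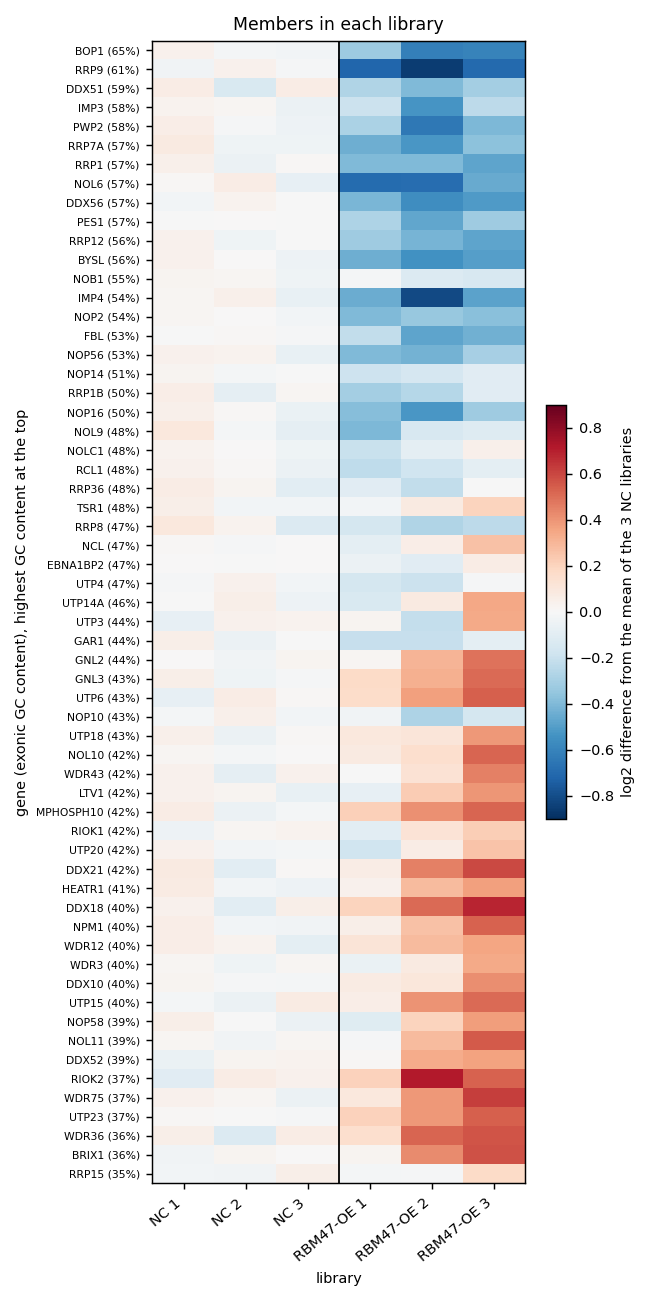
Heat map of the 60 members (rows, ordered by exonic GC content with the highest at the top) in the 6 libraries (columns), coloured by the log2 difference from the mean of the 3 NC libraries. The blue block at the top right holds GC-rich members that are low in all RBM47-OE libraries, and the red block below it deepens from RBM47-OE library 1, with a median of 0.09 over the higher members, to 0.37 and 0.53 in libraries 2 and 3.

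The direction of a member went with the base composition of its exons. The 19 lower members had an exonic GC content of 47.9% to 65.2% (median 56.7%) and the 19 higher members one of 35.8% to 43.5% (median 40.3%), with no overlap. Across the 60 members Spearman's rho between exonic GC content and log2 fold change was -0.87 and Pearson's r was -0.90, and across 16229 genes tested with exons in the annotation rho was -0.63. All these points come from the same 6 libraries and are not independent of each other, and no p-value is given. RRP9, picked for its low value and with a GC content of 60.7%, is among the 60 and among the GC-rich members below. Over all genes the median GC content was 49.0%. Of the 20 members above it 18 were lower and NOB1 and NOP14 did not pass, where 30.2% of all genes above it were lower. Of the 40 members at or below it 19 were higher, 20 did not pass and NOL9 was lower, where 37.0% of all genes there were higher. The 20 GC-rich members had a median log2 fold change of -0.41 and all GC-rich genes one of -0.18, while the 40 GC-poor members had one of 0.20 and all GC-poor genes one of 0.22. In RBM47-OE replicates 1, 2 and 3 the GC-rich members had medians of -0.36, -0.50 and -0.39, against -0.10, -0.20 and -0.24 for all GC-rich genes. The GC-poor members had medians of 0.00, 0.14 and 0.37, against 0.12, 0.25 and 0.28 for all GC-poor genes. In replicates 1 and 2 the GC-poor members thus lay below other GC-poor genes. The trend with GC content separates the groups of libraries, so a source in the cells and a source in the library preparation cannot be told apart.

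**Figure D3:**
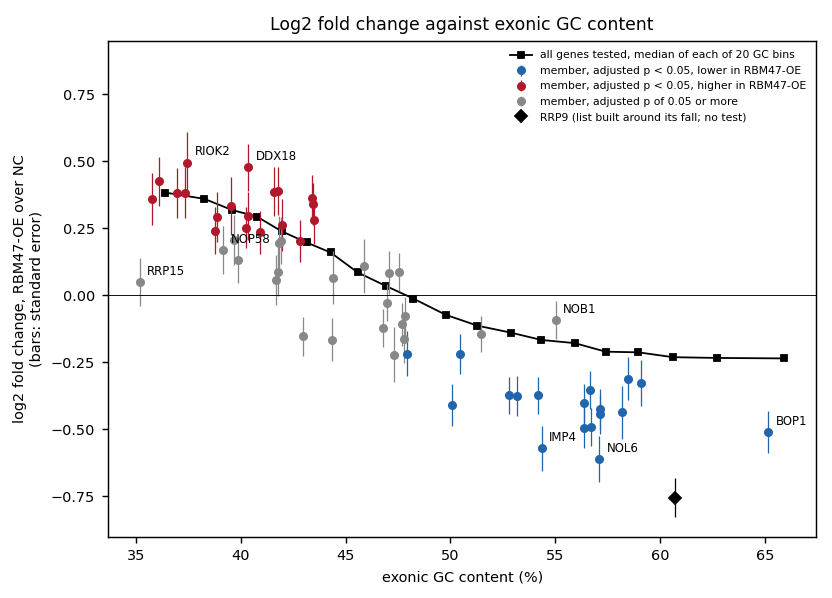
Log2 fold change of each member (RBM47-OE over NC, bars show the standard error) against its exonic GC content in percent, with the median of all genes tested in 20 bins of GC content as a line. The higher members lie around the line on the left, whereas the lower members, with RRP9 at 60.7% and -0.75, lie below it on the right.

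With the GC offset the counts and the median of the members shifted. RRP9, picked from this contrast, is among them, so nothing is read from the shift. Of the 19 lower members 15 also passed with the offset, and PWP2, IMP3, RRP1B and DDX51 did not. Of the 19 higher members 18 no longer passed, and 5 of these had a value below 0. Over all genes tested, higher genes went from 3100 to 976 and lower genes from 2740 to 1375. These totals include genes called with the offset alone. In both fits 1643 genes were called in the same direction, and 16 of these were members. NOP10, GAR1 and RRP15 passed as lower with the offset alone. The median log2 fold change went from 0.05 to -0.10 and the number of members below 0 from 29 to 42. Without RRP9 the median went from 0.06 to -0.09 and the number below 0 from 28 to 41 of 59. Of all 16260 genes tested, 8129 were below 0 without the offset and 8146 with it, and their median was 0.00 in both fits. The offset removes each library's trend with GC content over all genes, whichever way it arose, and not a steeper trend within the members. After it, Spearman's rho between GC content and the log2 fold change was still -0.54 across the 60 members.

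**Figure D4:**
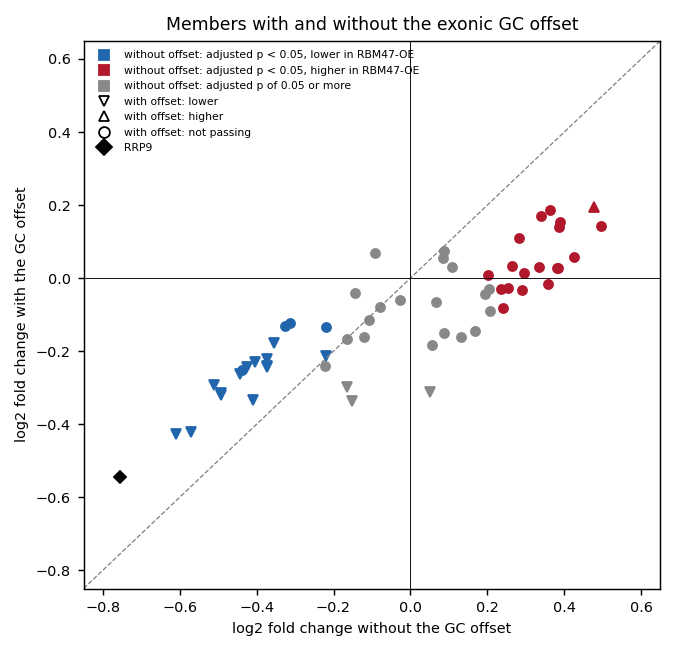
Log2 fold change of each member with the exonic GC offset (vertical) against the value without it (horizontal), with the line of equal values dashed, colours for the call without the offset and shapes for the call with it. The red points drop to between -0.08 and 0.20, and RRP9 moves from -0.75 to -0.54.

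Ratios between subunits of one complex do not depend on how libraries are scaled. Several pairs were chosen after their values were seen, so they are given with no test. The count ratio of MPHOSPH10 to IMP4 was 0.252, 0.227 and 0.253 in NC and 0.384, 0.570 and 0.491 in RBM47-OE. The ratio of WDR12 to BOP1 was 0.204, 0.208 and 0.193 in NC and 0.274, 0.377 and 0.392 in RBM47-OE. That of NOP58 to NOP56 was 0.30, 0.290 and 0.30 in NC and 0.362, 0.458 and 0.475 in RBM47-OE. In all 3 pairs every RBM47-OE library lay above every NC library. For MPHOSPH10 to IMP4 and WDR12 to BOP1 this follows from the single genes and adds nothing to them. There the first gene lay above NC and the second below it in every RBM47-OE library. No share of all gene pairs was taken. For WDR36 to PWP2 the mean ratio went from 2.04 ± 0.154 to 3.78 ± 0.925 (SD, n = 3). It had no overlap either, which again follows from the single genes. In each pair the subunit that gained has the GC-poorer exons, for example 36.1% for WDR36 against 58.2% for PWP2, and the part of this in the ratios was not tested beyond the GC offset above. The paralogs RRP1B and RRP1 both fell, and their ratio went from 1.70 ± 0.026 to 1.96 ± 0.205.

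Compared per length, in FPKM, most members were well expressed. Their median in NC was 15.2 FPKM, where 16368 protein-coding genes with FPKM values had a median of 2.48, and 57 of the 60 lay above that median. The most abundant were NOP10 at 195 ± 5.96, FBL at 176 ± 1.91, NPM1 at 111 ± 3.53, NCL at 94.0 ± 0.492 and NOLC1 at 86.6 ± 1.89 FPKM (SD, n = 3), each apart from the next by more than the sum of their SDs. These SDs do not cover the gene lengths behind the FPKM values, which are not given, and the order between genes rests on those lengths. In CPM, which takes no length into account, NPM1 had a mean of 1072 and NOP10 one of 115 in NC. RRP9 was the ninth most abundant member at 48.5 ± 1.38 FPKM in NC and 30.2 ± 1.17 FPKM in RBM47-OE. The least abundant were UTP15 at 2.39 ± 0.108, RIOK2 at 2.38 ± 0.159 and RRP8 at 2.08 ± 0.159 FPKM, and UTP15 and RIOK2 did not differ beyond their SDs. Within complexes the levels were unequal, and in the box C/D core FBL stood above NOP56 at 40.5 ± 1.56 and NOP58 at 18.2 ± 0.590 FPKM. In the PeBoW complex BOP1 at 64.7 ± 1.32 and PES1 at 60.9 ± 0.339 FPKM stood above WDR12 at 5.53 ± 0.279 FPKM.

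Factors of the same pathway outside the 60 moved to both sides as well. Of 78 other biogenesis factors 77 were tested, and 33 were lower, 19 higher and 25 did not pass, with a median log2 fold change of -0.13. Over all genes tested the shares were 16.9% lower and 19.1% higher. With the GC offset 28 were lower and 4 higher, where 8.46% and 6.0% of all genes were. Of 25 other SSU factors 14 fell and 4 rose, of 41 other LSU factors 16 fell and 14 rose, and of 11 snoRNP assembly factors 3 fell and RPAP3 rose. The helicase DHX37, which acts on the U3 snoRNP in the processome, was measured at 99.4 ± 3.86 CPM in NC and 68.7 ± 4.03 CPM in RBM47-OE (SD, n = 3) (log2 fold change -0.53 ± 0.073 (SE), adjusted p = 2.7e-05). KRR1, another processome factor, rose from 84.3 ± 3.26 to 119.5 ± 19.3 CPM (log2 fold change 0.50 ± 0.088 (SE), adjusted p = 0.00017) and stood at 0.13 with the GC offset. NMD3, the export adaptor of the 60S subunit, was measured at 65.3 ± 1.59 CPM in NC and 96.0 ± 6.68 CPM in RBM47-OE (SD, n = 3) (log2 fold change 0.56 ± 0.073 (SE), adjusted p = 2.2e-05) and stayed higher with the GC offset (0.35, adjusted p = 0.0003). NOC3L rose by 0.61 on the log2 scale and the assembly ATPase RUVBL2 fell, with a log2 fold change of -0.41.

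RNA polymerase I, which makes the precursor that the members process, had 15 listed subunits and factors, of which 7 fell (16.9% of all genes tested) and 5 rose (19.1% of all genes tested), with a median log2 fold change of -0.20. POLR1G, a subunit of the enzyme, was measured at 41.9 ± 2.61 CPM in NC and 25.7 ± 2.73 CPM in RBM47-OE (SD, n = 3), with no overlap (log2 fold change -0.71 ± 0.090 (SE), adjusted p = 1.5e-05), and stood at -0.54 with the GC offset. UBTF, the activator of rRNA gene transcription, fell with a log2 fold change of -0.38, and POLR1F and TTF1 each rose by 0.35 on the log2 scale. Of 14 genes of the RNA exosome and related nucleases, which trim and degrade rRNA precursors, 5 fell and 3 rose (median -0.05), beside the same shares of all genes. EXOSC4 stood at -0.50 and the nucleases DIS3 and XRN2 at 0.37 and 0.27. In each of these lists 6 genes were lower and 0 higher with the GC offset (edgeR, also 0 higher at an unadjusted p under 0.05). With that offset 8.46% of all genes tested were lower and 6.0% higher. POLR1F then stood at -0.01, TTF1 at 0.17, DIS3 at 0.07 and XRN2 at 0.08, and none of these passed.

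Some members share sequence with other annotated genes. Exons on the opposite strand covered more than 10% of the exonic bases of 11 members, with IMP3 (58.1%), RRP7A (33.9%) and TSR1 (26.9%) the highest. In 7 members, NOP56, NOP58 and GNL3 among them, 24 snoRNA genes lie inside the gene. The study's methods name a stranded library kit. Whether reads were counted by strand is not given in the sources used here, and the part of such reads in the values was not tested. Mature rRNA, rRNA processing and ribosome number were not measured in these poly(A) libraries.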

How the data were processed

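Poly(A) RNA of HCT116 cells was sequenced on a NovaSeq instrument as paired-end reads from 3 NC and 3 RBM47-OE libraries. After trimming, the authors mapped the reads with HISAT2 on GRCh38 and deposited the counts of uniquely mapped reads per gene, which carry no normalization. The authors' deposited FPKM values divide the fragments of a gene by its length and by the mapped fragments of the library. The counting tool, the annotation release and the use of strand in counting are not given in the sources used here. The methods and the sample labels name different plasmids, media and library kits. The groups were taken from the labels.

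Counts were tested with edgeR 4.0.16 in R 4.3.3 (filterByExpr with a minimum count of 10 and a minimum total of 15, TMM, quasi-likelihood test, condition only), with Benjamini-Hochberg adjustment over 16260 genes and a threshold of 0.05. The SE is the log2 fold change over the square root of the F statistic. Exons, GC content and coordinates came from GENCODE 44 and GRCh38 and promoters from RefSeq. Offsets for exonic GC content and length were taken from a loess curve in each library (span 0.3). Alternatives used DESeq2 1.42.0 and limma 3.58.1, and each kind of fit was tested on simulated data in which 200 genes were changed. The members and all gene lists were chosen with earlier results of these data known. Values per library are given for RRP9, the box C/D core, the PeBoW and MPP10 complexes, NCL, NPM1 and the members of each role group with the largest changes that passed (up to 2 per direction). Other lists are given by the same rule, in part. Count depth limits the precision of rare genes, and every member had at least 370 counts in each library.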

Additional observations from a re-analysis of the deposited data

How the results depend on the processing

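DESeq2 with and without the filter, RLE size factors, library totals, no filter and a minimum of 10 counts in every library left 17 to 19 lower and 18 to 21 higher members. With the exonic GC offset, 1 member and 4 other biogenesis factors were higher and the members had a median log2 fold change of -0.10. With the GC offset and the replicate block these values were 1, 4 and -0.11, and with the exonic length offset the median was -0.018. NOP58 stood at -0.15 in both GC fits, WDR12 at -0.027 and, with the block, -0.026, and BRIX1 at -0.015 and -0.018, whereas NCL stood at -0.026 with the length offset. limma on log2(FPKM + 1) and on log2(FPKM + 0.1) gave 12 higher members in each case. At the study's thresholds (edgeR) 2 members were lower (RRP9 counted) and 0 higher, and 0 other factors were lower and 1 higher. Of all genes tested 0.873% were lower and 1.51% higher at these thresholds. At an unadjusted p under 0.05 these 4 counts were 23, 21, 34 and 21, and DESeq2 at the study's thresholds gave 2, 0, 0 and 1. For an unadjusted p, DESeq2, limma and fits without 1 library no share of all genes is given, so those counts are not compared with a background. The causes of these shifts were not tested.

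When 1 library was left out, lower members numbered 17 to 19 and higher members 9 to 27, with 9 without RBM47-OE replicate 3 and 11 without NC replicate 2. Lower other factors numbered 27 to 35 and higher other factors 12 to 25, with 12 without RBM47-OE replicate 3. The median of the members ran from -0.061 without RBM47-OE replicate 3 to 0.092 without RBM47-OE replicate 1, and NCL from -0.013 to 0.17 without the same libraries. Same-numbered libraries did not deviate together (r of -0.06, -0.015 and -0.016 for numbers 1, 2 and 3), so the main fit did not pair them. Such values cannot tell whether same-numbered libraries were prepared together. The replicate block gave 18 lower and 18 higher members, 30 lower and 16 higher other factors and a median of 0.05. The median SE of the members was 0.084, where the smallest change that passed was 0.20.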
